A study of Mus musculus with 12 samples.

Results

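The 9 genes described here encode regulators and executioners of the mitochondrial route of cell death, taken by gene symbol from the 55487 genes listed for each library. They are the survival genes Bcl2l1, Mcl1 and Bcl2, the BH3-only genes Bcl2l11, Bid and Bad, the pore-forming effector gene Bak1, and the apoptosome genes Apaf1 and Casp9. RNA was sequenced from G1E-ER4 cells, derived from erythroid progenitors of the mouse. The line has no GATA1 of its own and was given a form of this erythroid transcription factor that estradiol switches on. The groups were siZIP10 plus DTPA (3 libraries), siZIP10 (3 libraries), siControl plus DTPA (2 libraries) and siControl (3 libraries). All cells were grown with erythropoietin and Kit ligand, received siRNA by nucleofection at 2 time points 24 h apart, and were induced to differentiate with 100 nM β-estradiol at the later of these. siZIP10 was directed at ZIP10, a zinc importer encoded by Slc39a10, and siControl was the control siRNA. DTPA, which chelates extracellular zinc and other metals, was added at 25 µM at the start of differentiation, and cells were collected after 24 h. The libraries come from 1 cell line. The labels say only siZIP10, with no sequence and without saying whether it was 1 siRNA or several. ZIP10 protein, zinc and cell death were not measured here. The values given for siControl plus DTPA replicate 3 were those of siZIP10 replicate 1 for all 55487 genes, so that library was left out.

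In the mitochondrial route, BH3-only proteins sense stress and either block the survival proteins BCL-XL, MCL1 and BCL2 or activate BAX and BAK directly. Active BAX and BAK open pores in the outer mitochondrial membrane, cytochrome c leaves, and APAF1 assembles with it into the apoptosome that activates caspase 9. In maturing erythroid cells, BCL-XL is the survival protein best known to act downstream of GATA1 and the erythropoietin receptor, and several of these proteins are controlled by cleavage, phosphorylation or turnover that RNA levels do not show.

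The libraries held 19.62 to 24.68 M reads (1 M is 1e+06 reads), recovered from the values as described under the processing. Slc39a10 transcripts averaged 5.10 TPM in siZIP10 plus DTPA cells, 0.627 TPM in siZIP10 cells, 21.1 TPM in siControl plus DTPA cells and 2.62 TPM in siControl cells, where TPM is the number of a gene's transcripts among 1e+06. The knockdown was thus visible without DTPA (log2 change −1.16 for siZIP10 against siControl, limma adjusted p = 2.37e-05). It was also visible with DTPA (log2 change −1.86 for siZIP10 plus DTPA against siControl plus DTPA, limma adjusted p = 3.25e-07). With both treatments, however, Slc39a10 stayed above siControl (log2 change 0.75, limma adjusted p = 7.74e-05). Mt2, a metallothionein gene that responds to zinc, averaged 22.1 TPM in siZIP10 plus DTPA cells, 2413 TPM in siZIP10 cells, 17.1 TPM in siControl plus DTPA cells and 2039 TPM in siControl cells. The 10 erythroid markers were all expressed, with summed levels of 38450 to 46300 TPM in siZIP10 plus DTPA cells and 40750 to 55720 TPM over the other groups. Hba-a1, an alpha globin gene, nevertheless averaged 4150 TPM in siZIP10 plus DTPA cells and 11660 TPM in siControl cells. Hba-a2, the other alpha globin gene of the list, averaged 755.4 TPM and 2800 TPM in the same order, with 1974 to 4010 TPM among siControl libraries. Between these groups limma called 7 of the 10 markers lower and 2 higher, beside 39.9% of all genes lower and 26.7% higher.

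The siZIP10 plus DTPA libraries also stood apart in make-up. Their share of mitochondrial rRNA was 1.435% to 1.446% of TPM, against 0.2617% to 0.4211% elsewhere, and that of ribosomal protein genes was 10.38% to 10.71%, against 7.782% to 9.183%. Summed megakaryocyte markers (5 genes) were 57.34 to 58.54 TPM in siZIP10 plus DTPA cells and 16.19 to 26.67 TPM elsewhere, and summed myeloid markers (6 genes) 41.67 to 44.26 TPM against 13.94 to 23.17 TPM. Summed mast cell and basophil markers (5 genes) were 20.74 to 22.59 TPM in siZIP10 plus DTPA cells and 0.8324 to 2.486 TPM elsewhere, nearly all of it Hdc, and summed lymphoid markers (5 genes) were 2.376 to 3.152 TPM against 0.2959 to 1.609 TPM. Some genes of these lists were higher in siZIP10 plus DTPA cells than in siControl cells: Itgb3 (log2 change 1.75), Gp1ba (1.68) and Itga2b (1.34) of the megakaryocyte list, Spi1 (1.42) and Cd68 (0.96) of the myeloid list, Hdc (3.43) and Cd79a (1.17), all called by limma. Gp9, the other tested megakaryocyte marker, did not pass the test (−0.09, limma adjusted p = 0.723). Its level in siZIP10 plus DTPA cells was lower than in siControl plus DTPA cells (−0.79, limma adjusted p = 0.0185). No megakaryocyte marker was at 0 throughout, whereas the mast cell and basophil markers Mcpt8, Fcer1a and Ms4a2, the myeloid markers Mpo and Elane and the lymphoid markers Ighm and Il7r were listed at 0 in all 11 libraries. The part of these differences in the results below was not tested, and in RNA from whole cultures fewer cells of a type and less RNA per cell cannot be told apart.

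With both treatments, 7 of the 8 tested genes changed against siControl: Bcl2l11, Bid, Apaf1 and Casp9 rose and Bcl2l1, Mcl1 and Bak1 fell, while Bad did not pass the test. The background was high, since 66.6% of the 11379 genes tested were called in this comparison (26.7% higher and 39.9% lower), so the count itself is close to what genes at large gave. The median log2 change of the 8 genes was 0, beside −0.08 for all genes. DTPA with the control siRNA raised Bcl2l1 and Apaf1 and lowered Mcl1 and Bak1 (4 of 8, with 28.8% of all genes called, 9.98% higher and 18.8% lower). The knockdown without DTPA raised Bcl2l1, Mcl1 and Bid and lowered none (3 of 8, with 30.6% of all genes called, 13.1% higher and 17.5% lower). These 3 comparisons share the siControl libraries. A gene was called when the Benjamini-Hochberg adjusted p of limma, over all genes that averaged 1 TPM or more, was under 0.05. Changes are differences of mean log2(TPM + 1), a scale that understates the change of genes with low values, and SE is the standard error of that difference.

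**Figure D1:**
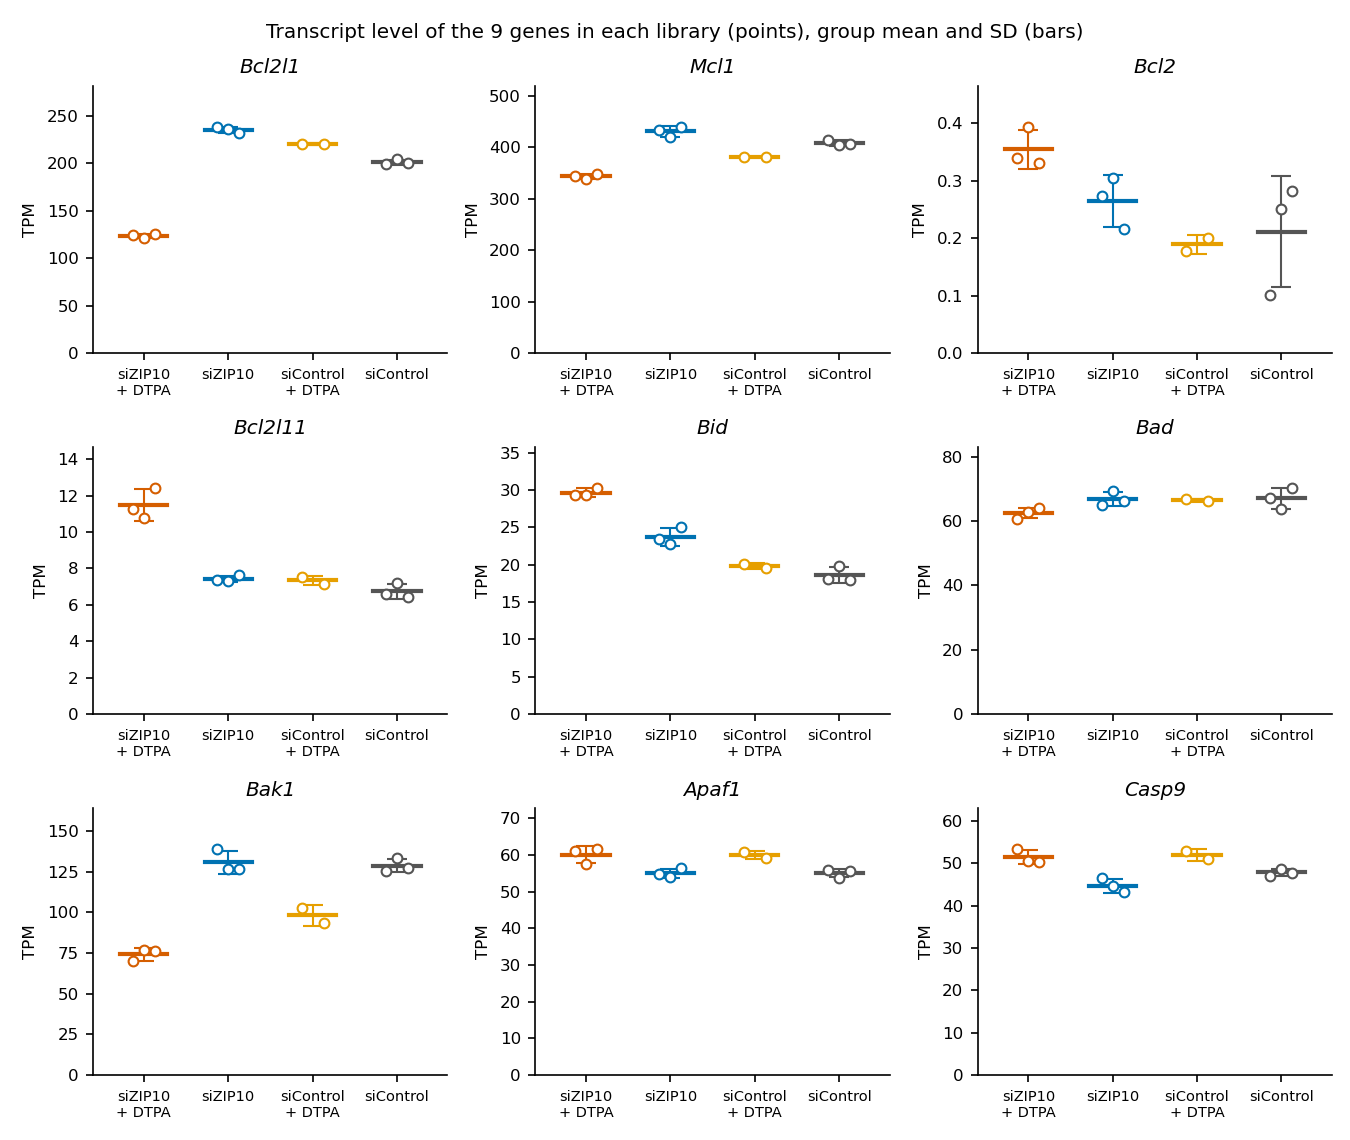
Transcript level (TPM, vertical axes from 0) of each of the 9 genes, by group. Open circles are libraries, thick bars group means and thin bars SD (3 libraries per group, 2 for siControl plus DTPA). Bcl2l1 and Bak1 are lowest, and Bcl2l11 and Bid highest, in the 3 siZIP10 plus DTPA libraries, without overlap with any other group.

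Among the survival genes, Bcl2l1 (ENSMUSG00000007659.18, mm10 chromosome 2, 152780668 to 152831728, minus strand) encodes BCL-XL. It had 124.2, 121.3 and 125.1 TPM in siZIP10 plus DTPA cells, 238.8, 235.9 and 232.2 TPM in siZIP10 cells, 220.2 and 221.1 TPM in siControl plus DTPA cells, and 199.7, 204.3 and 200.0 TPM in siControl cells. No library of one group overlapped another, and the doubly treated cells lay below all others while each single treatment lay above siControl. The group means were 123.6 ± 1.97, 235.6 ± 3.29, 220.6 ± 0.577 and 201.3 ± 2.58 TPM in the same order of groups (SD, n = 3, 3, 2 and 3), so that the doubly treated cells had 61.4%, siZIP10 cells 117% and siControl plus DTPA cells 110% of the siControl level. By limma, Bcl2l1 fell by 0.70 on the log2 scale with both treatments (SE 0.02, adjusted p = 6.08e-10) and rose by 0.23 with the knockdown alone (SE 0.02, adjusted p = 3.93e-05) and by 0.13 with DTPA alone (SE 0.02, adjusted p = 0.00248). All 3 calls held under each of 22 alternative settings, with the fall ranging between −0.71 and −0.50.

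The RefSeq promoter window upstream of the annotated start of Bcl2l1 is shown because this gene changed in opposite directions with one and with both treatments. It spans 250 bases on the minus strand (GRCm38.p6, chr2:152831729-152831978), written 5′ to 3′ with the start of transcription after the last base. Capitals mark the 1 match found in a search on both strands, a metal response element core (TGCGCNC or TGCACNC, the letters bound by the zinc-sensing factor MTF1), which begins at position −12 from the start.
Bcl2l1: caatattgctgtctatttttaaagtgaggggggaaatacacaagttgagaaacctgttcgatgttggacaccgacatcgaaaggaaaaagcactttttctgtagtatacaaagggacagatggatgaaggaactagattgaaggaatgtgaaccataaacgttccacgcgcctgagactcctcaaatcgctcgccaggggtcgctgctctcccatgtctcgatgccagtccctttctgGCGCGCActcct
Of 32851 promoter windows of this length, 21.4% held such a core. The window held no GATA letters (AGATAA or AGATAG, and likewise TGATAA or TGATAG, in 26.5% of windows), no STAT5 letters (TTCNNNGAA, in 7.02%), no FOXO letters (GTAAACA, in 3.17%) and no KLF1-type letters (CCNCNCCC, in 45.9%), which says only that these letters are not in these 250 bases. RefSeq lists 2 further Bcl2l1 windows, which lie within exons of the gene and are not shown. The window at chr2:152828490-152828739 holds a GATA match at position −41, and that at chr2:152830718-152830967 holds 2 KLF1-type matches.

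Mcl1 (ENSMUSG00000038612.16, chromosome 3, 95658788 to 95663176, plus strand) encodes a short-lived survival protein and had the highest level of the 9 genes. It had 344.5, 339.4 and 348.3 TPM in siZIP10 plus DTPA cells, 433.5, 420.3 and 440.4 TPM in siZIP10 cells, 381.9 and 381.0 TPM in siControl plus DTPA cells, and 414.7, 404.0 and 407.1 TPM in siControl cells. The 4 groups again did not overlap, with siZIP10 cells highest and doubly treated cells lowest at 84.2% of siControl. Mcl1 fell by 0.25 with both treatments (log2, SE 0.02, limma adjusted p = 3.07e-06), a fall that was −0.09 after quantile normalization and −0.26 at most. The smaller changes were less stable: the rise of 0.08 with the knockdown (limma adjusted p = 0.0264) lost its call in 7 of 22 settings, 4 of which left out a library (siControl replicate 2 or 3, siZIP10 replicate 1 or 3, adjusted p = 0.0711 to 0.0937), and the fall by 0.10 with DTPA (limma adjusted p = 0.0148) lost it in 6, including when either siControl plus DTPA replicate 1 (adjusted p = 0.0707) or replicate 2 (adjusted p = 0.0816) was left out. Bcl2l1 stood at 0.359 ± 0.0015 of the Mcl1 level in doubly treated cells, 0.546 ± 0.017 in siZIP10 cells, 0.579 ± 0.0025 in siControl plus DTPA cells and 0.493 ± 0.012 in siControl cells (SD, n = 3, 3, 2 and 3).

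Bcl2 itself (ENSMUSG00000057329.7, chromosome 1, 106538178 to 106714274, minus strand), the founding survival gene of the family, was close to absent. It had 0.3393, 0.3939 and 0.3308 TPM in siZIP10 plus DTPA cells, 0.2732, 0.3053 and 0.2166 TPM in siZIP10 cells, 0.1779 and 0.2007 TPM in siControl plus DTPA cells, and 0.1005, 0.2511 and 0.2818 TPM in siControl cells. These levels rest on 23, 30 and 21 reads in the doubly treated libraries and 7, 16 and 16 reads in the siControl libraries. The reads sum to 74 (exact 95% Poisson interval 58.1 to 92.9) in siZIP10 plus DTPA cells, 49 (36.3 to 64.8) in siZIP10 cells, 26 (17.0 to 38.1) in siControl plus DTPA cells and 39 (27.7 to 53.3) in siControl cells, where the intervals cover counting error only. The siControl plus DTPA sum comes from 2 libraries (12 and 14 reads) and the other sums from 3 each, so the sums cannot be compared directly. The doubly treated libraries lay above the others, but Bcl2 missed the 1 TPM needed for the test. An exact two-sided permutation test of siZIP10 plus DTPA against siControl gave p = 0.1, the smallest that the 20 arrangements of 3 against 3 libraries allow, and without the filter on low values limma gave a log2 change of 0.164 (adjusted p = 0.062).

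Bcl2l11 (ENSMUSG00000027381.16, chromosome 2, 128126038 to 128162547, plus strand) encodes BIM, a BH3-only protein that binds every survival protein and can activate BAX and BAK. It had 11.27, 10.75 and 12.43 TPM in siZIP10 plus DTPA cells, 7.379, 7.293 and 7.623 TPM in siZIP10 cells, 7.525 and 7.144 TPM in siControl plus DTPA cells, and 6.598, 7.196 and 6.429 TPM in siControl cells. Only the doubly treated group stood clear of all others, at 170% of siControl, while the siZIP10 and siControl plus DTPA values overlapped each other and siControl plus DTPA overlapped siControl. Bcl2l11 rose by 0.69 with both treatments (log2, SE 0.07, limma adjusted p = 4.89e-06), a call kept in all 22 alternative settings (0.63 to 0.83). With the knockdown alone the log2 difference was 0.12 (95% interval −0.03 to 0.27, limma adjusted p = 0.199) and with DTPA alone 0.11 (−0.06 to 0.27, limma adjusted p = 0.329).

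The promoter window of Bcl2l11 (GRCm38.p6, chr2:128125788-128126037, plus strand, 5′ to 3′, start of transcription after the last base) is shown because the gene rose in the same libraries in which Bcl2l1 fell. Capitals mark a FOXO match at position −227 from the start, a metal response element core at −148, and 6 KLF1-type matches. The KLF1-type matches all lie on the strand opposite to the one printed, and some overlap each other. FOXO3, a known activator of the BIM gene, binds the FOXO letters.
Bcl2l11: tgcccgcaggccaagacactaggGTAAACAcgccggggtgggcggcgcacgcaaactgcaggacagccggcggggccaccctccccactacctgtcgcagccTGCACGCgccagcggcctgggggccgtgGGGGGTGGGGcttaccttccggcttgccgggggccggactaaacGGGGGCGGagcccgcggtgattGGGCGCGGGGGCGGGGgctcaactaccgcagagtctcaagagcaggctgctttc
The window held no GATA or STAT5 letters. RefSeq lists another Bcl2l11 window downstream, not shown, with 2 metal response element cores, 1 KLF1-type match and no FOXO match. A match of letters is a description, and no binding was measured.

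Bid (ENSMUSG00000004446.12, chromosome 6, 120891930 to 120916853, minus strand) encodes a BH3-only protein that caspase 8 cuts into its active form. It had 29.30, 29.36 and 30.32 TPM in siZIP10 plus DTPA cells, 23.47, 22.75 and 25.06 TPM in siZIP10 cells, 20.16 and 19.56 TPM in siControl plus DTPA cells, and 18.14, 19.80 and 17.90 TPM in siControl cells. The doubly treated cells were highest and siZIP10 cells next, both clear of the remaining libraries, whereas siControl plus DTPA overlapped siControl. Bid rose by 0.65 with both treatments (log2, SE 0.05, limma adjusted p = 6.31e-07) and by 0.34 with the knockdown alone (SE 0.05, limma adjusted p = 0.000556), and both calls held in all 22 settings. With DTPA alone the difference was 0.09 (95% interval −0.03 to 0.21, limma adjusted p = 0.263), but it was 0.15 and called after quantile normalization (limma adjusted p = 0.0431). Exons of Bcl2l13 on the opposite strand cover 17.7% of the exon length of Bid. The strand setting of the counting is not given in the sources used here, and Bcl2l13 had 244 to 253 TPM in siZIP10 plus DTPA cells and 230 to 238 TPM in siControl cells, so its part in the Bid values was not tested.

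Bad (ENSMUSG00000024959.14, chromosome 19, 6941861 to 6951899, plus strand), whose BH3-only protein is held inactive by growth factor signals through phosphorylation, passed the test in none of the 6 comparisons. It had 60.73, 62.66 and 63.96 TPM in siZIP10 plus DTPA cells, 64.90, 69.30 and 66.30 TPM in siZIP10 cells, 66.77 and 66.14 TPM in siControl plus DTPA cells, and 67.12, 63.55 and 70.31 TPM in siControl cells. The doubly treated and siControl libraries overlapped. The log2 difference with both treatments was −0.10 (95% interval −0.19 to −0.01, limma adjusted p = 0.051), just above the threshold, and it was 0.03 after quantile normalization and −0.14 without siControl replicate 2 (limma adjusted p = 0.0128). It was also called without siZIP10 replicate 2 (limma adjusted p = 0.0469) and among genes averaging 5 TPM or more (limma adjusted p = 0.0458). Exons of Gpr137 on the opposite strand cover 20.5% of Bad, and Gpr137 averaged 32.6 TPM in siZIP10 plus DTPA cells and 26.2 TPM in siControl cells.

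Bak1 (ENSMUSG00000057789.14, chromosome 17, 27019810 to 27029009, minus strand) encodes BAK, a pore-forming effector that resides in the outer mitochondrial membrane. It had 69.81, 77.08 and 76.12 TPM in siZIP10 plus DTPA cells, 139.1, 126.7 and 126.4 TPM in siZIP10 cells, 102.7 and 93.52 TPM in siControl plus DTPA cells, and 125.7, 133.1 and 127.0 TPM in siControl cells. The doubly treated group was lowest at 57.8% of siControl, siControl plus DTPA lay between at 76.3%, and siZIP10 and siControl overlapped. Unlike Bcl2l1, Bak1 fell with DTPA alone (by 0.39 on the log2 scale, SE 0.06, limma adjusted p = 0.000731) and fell further with both treatments (by 0.78, SE 0.05, limma adjusted p = 2.37e-07). With the knockdown alone the difference was 0.02 (95% interval −0.09 to 0.14, limma adjusted p = 0.792). The fall with DTPA alone held in 21 of 22 settings, the exception being that with the repeated library kept under its label (−0.22, limma adjusted p = 0.195). Exons of Ggnbp1 on the opposite strand cover 25.5% of Bak1, but that gene stood at 1.07 to 1.82 TPM in all groups.

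Apaf1 (ENSMUSG00000019979.12, chromosome 10, 90989311 to 91082770, minus strand) encodes the scaffold of the apoptosome. It had 61.11, 57.57 and 61.71 TPM in siZIP10 plus DTPA cells, 54.82, 53.99 and 56.40 TPM in siZIP10 cells, 60.79 and 59.14 TPM in siControl plus DTPA cells, and 55.83, 53.70 and 55.64 TPM in siControl cells. The 5 libraries with DTPA lay above the 6 without it, and within each set the groups overlapped. The rise with both treatments was 0.12 (log2, SE 0.03, limma adjusted p = 0.00811) and held in all 22 settings. The rise of 0.12 with DTPA alone (SE 0.04, limma adjusted p = 0.0384) lost its call in 10 settings, including when any 1 of the 3 siControl libraries, either siControl plus DTPA library or siZIP10 replicate 1 was left out (limma adjusted p = 0.0524 to 0.2).

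Casp9 (ENSMUSG00000028914.13, chromosome 4, 141793612 to 141815976, plus strand) encodes caspase 9, the initiator caspase of the apoptosome. It had 53.49, 50.64 and 50.41 TPM in siZIP10 plus DTPA cells, 46.47, 44.67 and 43.15 TPM in siZIP10 cells, 53.06 and 51.04 TPM in siControl plus DTPA cells, and 47.10, 48.79 and 47.86 TPM in siControl cells. Like Apaf1 it was higher in the libraries with DTPA, which did not overlap those without. The rise with both treatments against siControl was 0.10 (log2, SE 0.04, limma adjusted p = 0.0319), a call lost without siControl replicate 1 or 3 or siZIP10 plus DTPA replicate 1 (limma adjusted p = 0.0718 to 0.121). With DTPA alone the difference was 0.12 (95% interval 0.02 to 0.21, limma adjusted p = 0.0593) and with the knockdown alone −0.10 (−0.18 to −0.01, limma adjusted p = 0.0759), which was −0.12 without siZIP10 replicate 1 (limma adjusted p = 0.0475). The difference with DTPA alone was called in 4 alternatives: after quantile normalization (0.18, limma adjusted p = 0.00755), median-of-ratios scaling (0.16, limma adjusted p = 0.0167), rescaling to nuclear protein-coding genes (0.13, limma adjusted p = 0.0258) and with voom (0.14, limma adjusted p = 0.0118).

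**Figure D2:**
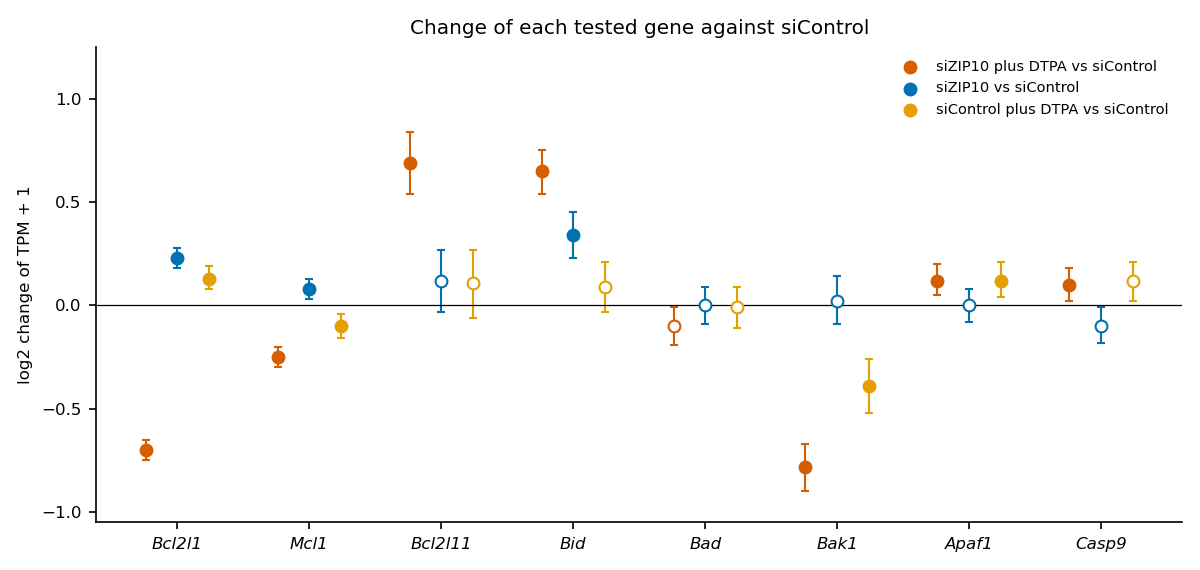
Log2 change of TPM + 1 against siControl (vertical axis) for the 8 tested genes, with 95% intervals of the limma model. Colours mark the comparison, and filled points have an adjusted p under 0.05. For Bcl2l1 the double treatment lies at −0.70 and each single treatment above 0, while Bak1 is below 0 with both treatments (−0.78) and with DTPA alone (−0.39).

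The factorial design also asks how DTPA acted in cells with the knockdown and whether that differed from its action without it. Between siZIP10 plus DTPA and siZIP10, 7 of the 8 genes were called (60.4% of all genes, 23.1% higher and 37.3% lower): Bcl2l11 (0.56), Bid (0.31), Casp9 (0.20) and Apaf1 (0.12) rose, and Bcl2l1 (−0.93), Bak1 (−0.81) and Mcl1 (−0.33) fell on the log2 scale. Between siZIP10 plus DTPA and siControl plus DTPA, 5 of 8 were called (53.1% of all genes, 21.3% higher and 31.7% lower): Bcl2l11 (0.58) and Bid (0.56) rose, and Bcl2l1 (−0.83), Bak1 (−0.40) and Mcl1 (−0.15) fell. The Mcl1 call in the comparison within DTPA was lost after quantile normalization (−0.03, limma adjusted p = 0.218). In that comparison, between the DTPA groups, Apaf1 (0.00, 95% interval −0.08 to 0.09) and Casp9 (−0.01, −0.11 to 0.08) did not pass the test, but Apaf1 was called higher after quantile normalization (0.08, limma adjusted p = 0.0425).

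The interaction, which is the DTPA effect in siZIP10 cells minus the DTPA effect in siControl cells, was called for 5 of 8 genes, against 32.4% of all genes (12% higher and 20.4% lower). Bcl2l1 had the widest difference of the 8: its log2 change with DTPA was −0.93 in siZIP10 cells and 0.13 in siControl cells, a difference of −1.06 (SE 0.03, limma adjusted p = 1.27e-08). For Bak1 the DTPA effects were −0.81 in siZIP10 cells and −0.39 in siControl cells (difference −0.42, SE 0.08, limma adjusted p = 0.00231), and for Mcl1 −0.33 and −0.10 in the same order (difference −0.23, SE 0.03, limma adjusted p = 0.000566). For Bcl2l11 they were 0.56 in siZIP10 cells and 0.11 in siControl cells (difference 0.46, SE 0.10, limma adjusted p = 0.00566). The Bid interaction (0.22, SE 0.07, limma adjusted p = 0.0439) was marginal and was lost in 11 of 21 settings, 8 of which left out a library: siControl replicate 2, siControl plus DTPA replicate 1 or 2, siZIP10 replicate 1 or 2, or any of the siZIP10 plus DTPA libraries (limma adjusted p = 0.064 to 0.137). For Bad (−0.09, 95% interval −0.22 to 0.05), Apaf1 (0.00, −0.11 to 0.12) and Casp9 (0.08, −0.04 to 0.21) the difference did not pass the test. After rescaling to nuclear protein-coding genes that of Casp9 was 0.16 and called (limma adjusted p = 0.0322), which made 6 of 8.

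**Figure D3:**
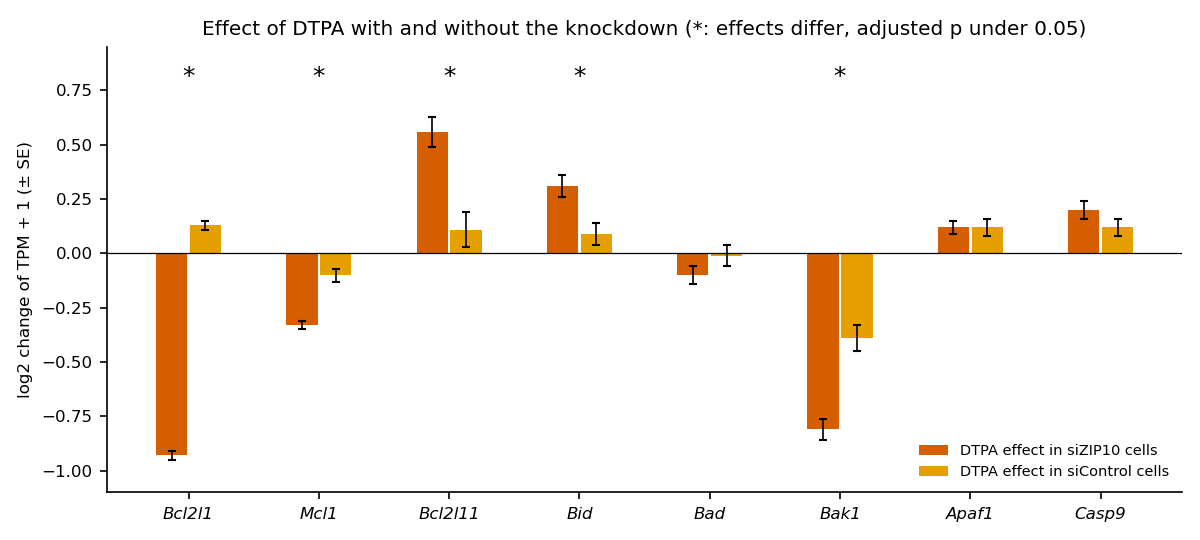
Log2 change of TPM + 1 with DTPA (vertical axis, bars from 0, error bars SE) in siZIP10 cells (left bar) and in siControl cells (right bar) for the 8 tested genes. Stars mark an interaction with adjusted p under 0.05. The Bcl2l1 bars point in opposite directions (−0.93 and 0.13), and both Apaf1 bars are at 0.12.

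Ratios of transcript levels within a library do not depend on a scaling factor common to the library, and they are given here as a description without a test. Bcl2l1 over Bcl2l11 was 10.8 ± 0.64 in siZIP10 plus DTPA cells, 31.7 ± 1.1 in siZIP10 cells, 30.1 ± 1.2 in siControl plus DTPA cells and 29.9 ± 1.4 in siControl cells (SD, n = 3, 3, 2 and 3). The doubly treated libraries (10.1 to 11.3) lay far below all others (28.4 to 32.4), which overlapped one another. Bcl2l1 over Bid was 4.17 ± 0.064 in doubly treated cells and 10.8 ± 0.45 in siControl cells.

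The summed TPM of the expressed survival genes (Bcl2l1, Mcl1, Bcl2 and Bcl2l2) was 490 ± 7.4 in siZIP10 plus DTPA cells, 693 ± 10 in siZIP10 cells, 626 ± 1.2 in siControl plus DTPA cells and 635 ± 4.3 in siControl cells. That of the BH3-only genes (Bcl2l11, Bid, Bad and Bbc3) was 284 ± 4.7, 259 ± 6.9, 252 ± 4.3 and 206 ± 7.9 TPM in the same order of groups. Their quotient was 1.73 ± 0.0046 in doubly treated cells, 2.68 ± 0.11 in siZIP10 cells, 2.48 ± 0.037 in siControl plus DTPA cells and 3.08 ± 0.14 in siControl cells, so that both single treatments also lay below siControl. Most of the BH3-only sum was Bbc3, with 180.2, 161.1, 158.4 and 113.7 TPM in the same order of groups. The lower quotient with each single treatment thus rests largely on this 1 gene. Set against the effector genes (Bax, Bak1 and Bok), survival transcripts were 0.92 ± 0.0098 in doubly treated cells and 1.2 ± 0.023 in siControl cells. Bak1 over Bax was 0.164 ± 0.0097 in siZIP10 plus DTPA cells, 0.278 ± 0.012 in siZIP10 cells, 0.212 ± 0.015 in siControl plus DTPA cells and 0.322 ± 0.0063 in siControl cells. RNA sums weigh every transcript alike and say nothing of protein amounts.

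**Figure D4:**
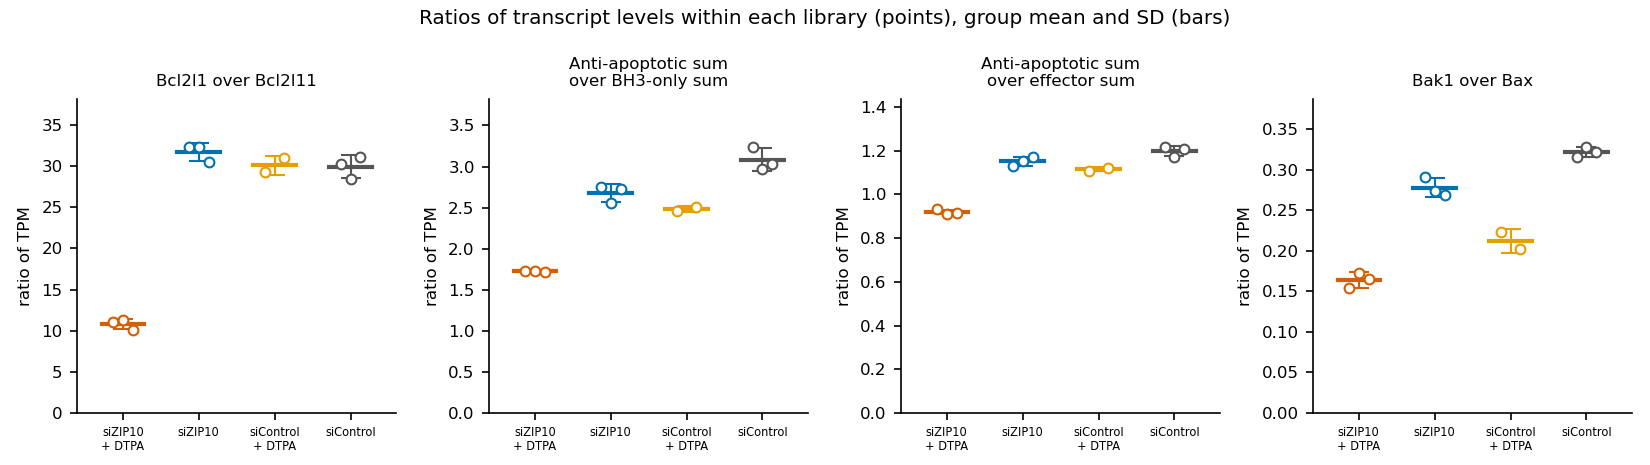
Ratios of TPM within each library (vertical axes from 0) by group, with libraries as circles, means as thick bars and SD as thin bars. The 3 siZIP10 plus DTPA libraries are lowest in all 4 panels, and for Bcl2l1 over Bcl2l11 they lie at 10.1 to 11.3 while the other 8 libraries lie at 28.4 to 32.4.

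The wider pathway was read from 12 lists of 68 genes, which contain the 9 genes above. Of the 59 other genes 39 were tested, and with both treatments 15 rose, 13 fell and 11 did not pass the test against siControl, with a median log2 change of 0.03, beside 66.6% of all genes called (26.7% higher and 39.9% lower). DTPA alone gave 6 higher and 8 lower (28.8% of all genes called), and the knockdown alone 7 higher and 6 lower (30.6% of all genes called), with medians of −0.02 and 0.02. The counts of called genes are thus near the background in all 3 comparisons. The medians over all genes were −0.08 with both treatments, −0.04 with DTPA and −0.01 with the knockdown.

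Of the 8 anti-apoptotic genes, Bcl2a1a, Bcl2a1b, Bcl2a1d and Bcl2l10 were listed at 0 in all 11 libraries. How reads that match several genes were counted is not given, so a 0 for the related Bcl2a1 genes may not show absence. The 3 tested genes of this list fell with both treatments (39.9% of all genes fell). The third of these, Bcl2l2 (BCL-W), fell by only 0.17 (limma adjusted p = 0.00796) and lost its call in 3 alternatives that change the scaling or use reads. All 3 pore-forming effectors were expressed, and they did not move together. Bax, which moves to mitochondria on activation, had 454.2 ± 8.6 TPM in siZIP10 plus DTPA cells, 470.5 ± 6.72 TPM in siZIP10 cells, 461.9 ± 1.39 TPM in siControl plus DTPA cells and 399.5 ± 5.61 TPM in siControl cells (SD, n = 3, 3, 2 and 3). It rose with both treatments (log2 change 0.18), with the knockdown (0.24) and with DTPA (0.21), where Bak1 fell or did not pass the test. Bok, a related effector, rose with both treatments to 3.981 ± 1.19 TPM, against 1.407 ± 0.388 TPM in siControl cells (log2 change 1.03, SE 0.26, limma adjusted p = 0.0045), at a low level where the value depends on the pseudocount (0.85 to 1.58 over the alternatives).

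Of the 8 BH3-only genes 4 were tested, and 3 rose and none fell with both treatments, beside 26.7% of all genes higher and 39.9% lower. Bbc3, which encodes PUMA, a target of p53, was the most abundant of them with 180.2 ± 3.48 TPM in siZIP10 plus DTPA cells, 161.1 ± 5.65 TPM in siZIP10 cells, 158.4 ± 3.13 TPM in siControl plus DTPA cells and 113.7 ± 8.35 TPM in siControl cells. It rose with each single treatment (log2 change 0.50 with the knockdown and 0.48 with DTPA) as well as with both (0.66), and its interaction was −0.32 (limma adjusted p = 0.00636) where that of Bcl2l11 was 0.46. Pmaip1, the gene of the p53-inducible BH3-only protein NOXA, was listed at 0 in all 11 libraries, below the 0.132 to 0.177 TPM that 3 reads would give, and so was Hrk. Of the 6 other BCL2-related genes, Bnip3l, whose protein NIX clears mitochondria from maturing red cells, fell to 286.0 ± 7.31 TPM in siZIP10 plus DTPA cells, against 432.8 ± 14.4 TPM in siControl cells (log2 change −0.60, limma adjusted p = 1.67e-08). Its relative Bnip3 fell with both treatments (−0.44) and rose with the knockdown alone (0.41), with an interaction of −0.76 (limma adjusted p = 4.59e-05).

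Downstream of the pore, Cycs (cytochrome c) fell with both treatments (log2 change −0.52), the knockdown (−0.37) and DTPA (−0.25). Cycs has near-identical pseudogene copies, so its share of reads is uncertain. Htra2, a mitochondrial protease that blocks caspase inhibitors, rose with both treatments (0.52) and with the knockdown (0.23). Of the 5 tested caspase inhibitor genes, 1 rose and 1 fell with both treatments, beside 26.7% of all genes higher and 39.9% lower. The gene that fell, Birc5, encodes survivin, which also acts in mitosis: it had 2.032 ± 0.393 TPM in siZIP10 plus DTPA cells, 21.29 ± 1.16 TPM in siZIP10 cells, 25.23 ± 0.216 TPM in siControl plus DTPA cells and 66.09 ± 1.77 TPM in siControl cells (log2 change −4.48 with both treatments, limma adjusted p = 1.77e-11).

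Casp6, an executioner caspase gene, rose by 0.19 with both treatments (limma adjusted p = 0.0356), a call lost without siControl replicate 2 or 3 or any 1 of the siZIP10 plus DTPA libraries (limma adjusted p = 0.0527 to 0.137). Of the 6 other caspases, the only one tested was Casp2, which fell with both treatments to 13.35 ± 0.338 TPM, against 19.68 ± 0.305 TPM in siControl cells (log2 change −0.53, limma adjusted p = 1.45e-06). Casp8, the caspase that cuts BID, stayed at or below 0.1115 TPM in every library.

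Of the 5 genes for nuclear proteins that caspases cut or that cut DNA, 2 rose and 2 fell with both treatments, where 66.6% of all genes were called. The DNA repair gene Parp1 (0.40) and the nuclease gene Dffb (0.50) rose, and the lamin gene Lmnb1 (−2.21) was among those that fell. Lmnb1 had 5.62 ± 0.0924 TPM in siZIP10 plus DTPA cells, 14.39 ± 0.837 TPM in siZIP10 cells, 15.54 ± 1.23 TPM in siControl plus DTPA cells and 29.72 ± 0.484 TPM in siControl cells. In the death receptor list, the receptor genes Fas and Tnfrsf1a were listed at 0 in all 11 libraries. A further receptor gene, Tnfrsf10b, averaged 2.105 TPM in siZIP10 plus DTPA cells and 1.575 TPM in siControl cells. It did not pass the test with both treatments (0.27, limma adjusted p = 0.089). Of the 5 tested genes of that list, 1 rose and 2 fell with both treatments, among them Ripk1, a signalling kinase (−0.46), and Cflar, an inhibitor of caspase 8 (0.21). Of the 3 tested genes of MCL1 turnover, 2 rose and none fell with both treatments, beside 26.7% of all genes higher and 39.9% lower. Fbxw7, part of a ligase that marks MCL1 for degradation, rose with both treatments (0.31), the knockdown (0.28) and DTPA (0.14). Usp9x, whose product removes ubiquitin from MCL1 and so protects it, also rose with both treatments (0.16, limma adjusted p = 0.00482), and Huwe1, another MCL1 ligase gene, did not pass (−0.12, limma adjusted p = 0.0885).

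Among the upstream erythroid regulators, 2 of 6 rose and 3 fell with both treatments, a count near the 66.6% of all genes called. Epor, the erythropoietin receptor gene, fell to 70.95 ± 2.77 TPM in siZIP10 plus DTPA cells, against 151.5 ± 2.49 TPM in siZIP10 cells, 123.1 ± 6.89 TPM in siControl plus DTPA cells and 150.8 ± 5.85 TPM in siControl cells. Its interaction was −0.79 (limma adjusted p = 5.51e-06) beside −1.06 for Bcl2l1. Stat5a, which acts below that receptor, rose by 0.86 on the log2 scale with both treatments, from 21.77 TPM in siControl cells. The more abundant Stat5b (216.2 TPM in siControl cells) did not pass the test (−0.07, limma adjusted p = 0.0691). Jak2 fell with both treatments (−0.1, limma adjusted p = 0.0318). Foxo3 rose by 0.27 with both treatments and by 0.21 with DTPA alone. Gata1 transcripts, which in these cells may come from the introduced form, averaged 1020 ± 38.9 TPM in siZIP10 plus DTPA cells, 1552 ± 45.9 TPM in siZIP10 cells, 1458 ± 76.5 TPM in siControl plus DTPA cells and 2067 ± 53.7 TPM in siControl cells. Gata1 thus fell with each single treatment (−0.41 with the knockdown, −0.50 with DTPA), in the same libraries in which Bcl2l1 rose. The Gata1 interaction did not pass the test (−0.1, limma adjusted p = 0.212). Any link of Gata1 or Epor to the Bcl2l1 changes was not tested.

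**Figure D5:**
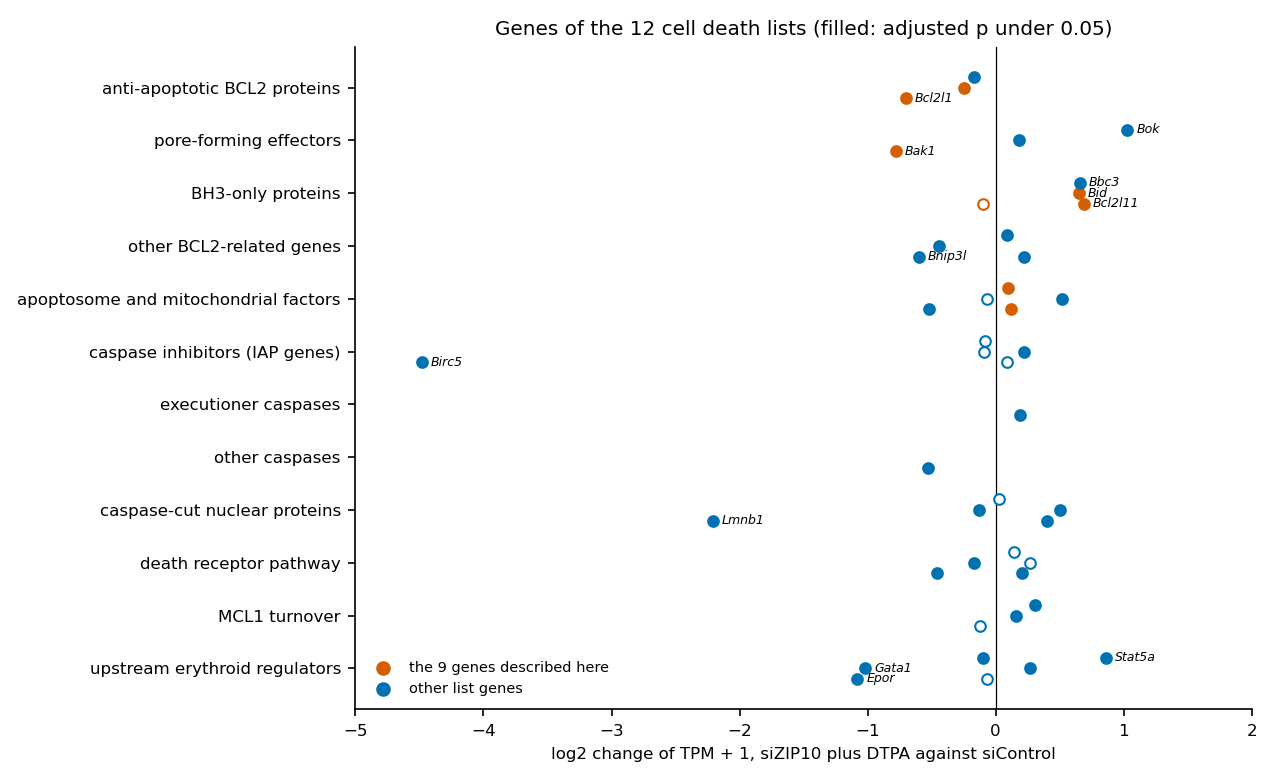
Log2 change of TPM + 1, siZIP10 plus DTPA against siControl (horizontal axis), of 45 of the 47 tested genes in the 12 cell death lists (rows). The other 2 are not drawn. Orange points are genes described individually above, blue points the other list genes, and filled points have an adjusted p under 0.05. Birc5 (−4.48) and Lmnb1 (−2.21) lie farthest from 0, and 3 of the 4 tested BH3-only genes lie between 0.65 and 0.69.

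For the 4 genes whose group means spanned at least 0.5 on the log2 scale, the genes with the most similar profile were sought among the 8919 genes averaging 5 TPM or more, as the smallest root mean square difference between centred log2 values over the 11 libraries. Nearest to Bcl2l1 were Mettl27 (0.059), Trpv2 (0.062) and Prr13 (0.062), and Mettl27 had 48.54 TPM in siZIP10 plus DTPA cells, 90.91 TPM in siZIP10 cells, 85.44 TPM in siControl plus DTPA cells and 84.18 TPM in siControl cells. Nearest to Bcl2l11 were Ercc6 (0.051), Tex19.2 (0.058) and Eml4 (0.061). Bid was closest to Acsl1 (0.057), Itprid2 (0.058) and Prkx (0.061), and Bak1 to Guk1 (0.063), Txndc17 (0.065) and Uck2 (0.070). None of these 12 genes is in the cell death lists, and the measure describes these libraries only.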

How the data were processed

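The deposited values are TPM per gene, made by the authors, in 12 libraries labelled as 3 biological replicates per group. The submitters' processing notes name HISAT2 2.1.0 and featureCounts with mm10, besides Trimmomatic 0.33, FastQC and edgeR. Their settings, the strand use and the annotation were not given in the sources used here. Positions and exon lengths came from GENCODE release M21, which matched 53292 of 55367 distinct names. TPM multiplied by exon length fell on whole reads for 98.9% to 99.1% of values up to 20 reads (within 0.1 read), which gave the depth and, with voom, an alternative test. The members and lists were chosen with earlier results of these data known. For named genes the rule took the 9 members, up to 4 tested genes per list with the largest change against siControl, Slc39a10, Mt1 and Mt2, and the 3 nearest profiles. Casp8, Stat5b, Jak2, lineage markers and genes listed at 0 were added after their values were seen.

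The moderated test of limma 3.58.1 (R 4.3.3), with a trend, was fitted to log2(TPM + 1) of the 11379 genes averaging 1 TPM or more, with 4 group means over 11 libraries. Each p was two-sided and adjusted by the Benjamini-Hochberg method within each of 6 comparisons, and the code was tested on simulated data. The 22 alternatives changed the pseudocount, filter, trend, scaling, libraries or replicate block. Same-numbered libraries of different groups did not deviate together (15 pairs, r = −0.06 to 0.06), so replicate numbers were not used as pairs. Promoter windows came from RefSeq (GRCm38.p6). Python 3.11.15, pandas 2.3.3 and scipy 1.17.1 were also used. Some list genes are not reported here.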

Additional observations from a re-analysis of the deposited data

Results flagged for a closer look

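For 5 of the 8 tested genes the effect of DTPA in siZIP10 cells differed from its effect in siControl cells by the limma interaction test, in a comparison in which 32.4% of all genes were called. The difference of the log2 effects was −1.06 for Bcl2l1, whose DTPA effect changed sign between the siRNAs, and −0.23 for Mcl1. It was −0.42 for Bak1, which fell with DTPA under either siRNA. It was 0.46 for Bcl2l11 and 0.22 for Bid, and the Bid value lost its call in 11 of 21 alternatives. No library left out changed the direction of any of these 5 differences.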

How the results depend on the processing

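The calls of Bcl2l1 and Bcl2l11 with both treatments, and their interactions, held in every alternative run. With DTPA alone, the count of called genes among the 8 tested was 2 without the trend, 1 with the repeated siControl plus DTPA library kept as labelled, and 2 to 4 when 1 library was left out; 2 was the count without either siControl plus DTPA library, and 5 after quantile normalization, after rescaling to nuclear protein-coding genes and with voom. The interaction count was 4 to 6. Directions that turned were of differences that had not passed the test, and the cause was not tested. For Bad these were, with DTPA alone, 0.01 under the replicate block, 0.03 after quantile normalization, 0.03 after median-of-ratios scaling, 0.01 with voom and −0.05 to 0.02 with a library left out; with the knockdown alone, 0.02 (quantile), 0.01 (median-of-ratios), 0.01 (voom) and −0.04 to 0.03 with a library left out; and after quantile normalization 0.03 with both treatments, 0.01 against siZIP10 and 0.00 against siControl plus DTPA. For Apaf1 they were −0.02 to 0.01 (knockdown), −0.02 to 0.03 (both treatments against siControl plus DTPA) and −0.02 to 0.03 (interaction) with a library left out, and −0.01 for each of the last 2 under the replicate block. For Casp9 between the DTPA groups they were 0.06 (quantile), 0.04 (median-of-ratios), 0.06 (nuclear protein-coding genes), 0.03 (voom), 0.04 (repeated library kept) and −0.04 to 0.01 (library left out); and for Bak1 with the knockdown −0.02 to 0.05 (library left out).

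The replicate block left 4 interactions called, without Bid (0.21, limma adjusted p = 0.0827), and changed no other call of the 8 genes. Scaling moved the share of higher calls among all genes: with both treatments it was 40.1% as reported and 50.2% after quantile normalization, with DTPA 34.7% and 51.1%, and with the knockdown 42.9% and 54.3%. Against siZIP10 it was 38.2% and 50.1% after rescaling to nuclear protein-coding genes, against siControl plus DTPA 40.2% and 53.1%, and for the interaction 37.1% and 54.2%. With 2 siControl plus DTPA libraries, small effects of DTPA alone are measured least precisely.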
